A study of Homo sapiens with 48 samples.

Results

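The joint action of EGF and angiotensin II (AII) after 24 h was described from 12 of the 48 libraries of the series, 6 of cells given both ligands and 6 of control cells, chosen by their labels alone. The study gives a smaller number of libraries per condition than the labels list, and the sources used here do not explain the difference. The cells were HEK293, a human embryonic kidney line, in which an expression plasmid for the AII receptor AT1R had been stably introduced together with a puromycin plasmid, followed by selection and limited dilution cloning, so that all groups rest on selected, clonal receptor-expressing cells. Every group was kept in serum-free medium. The AII + EGF group received 10 µg/L EGF and 1 nM AII for 24 h and the control 24 h group neither ligand, while the groups used beside them were EGF 24 h (10 µg/L EGF), AII 24 h (1 nM AII), and AII + EGF 6 h with control 6 h, of 6 libraries each. Poly(A)-enriched RNA was sequenced and counted per gene. The labels do not say whether libraries of a group came from separate cultures, so p-values measure the spread between these libraries, which may be technical.

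EGF binds the receptor tyrosine kinase EGFR and activates the RAS-RAF-MEK-ERK cascade, which phosphorylates ETS factors bound next to the serum response factor (SRF) and switches on immediate-early genes such as EGR1, FOS and ARC. The AII receptor AT1R is a G protein-coupled receptor that acts mainly through Gq, phospholipase C, calcium and protein kinase C, and it can also lead to ERK signalling. Both inputs are known to meet at SRF. Immediate-early transcripts usually fade within hours, whereas transcripts of later waves can persist.

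The 12 libraries held 18.4 to 26.9 M counted reads. The HEK293 genes NEFM, VIM and GATA2 were present in each library, whereas PAX8 had at most 6 reads in any. Of the markers of other cell types UMOD had no read in any library, PTPRC, COL1A2 and HBB had at most 1, and COL1A1, COL3A1 and ACTA2 each exceeded 7 CPM in every library, in counts per 1000000 reads (CPM) normalised by the trimmed mean of M values (TMM). edgeR called none of the 11 HEK293 or 7 other marker genes that could be tested, 3 of each had an unadjusted p under 0.05 and DESeq2 called 1 of each. Over the 498 pairs that involve any of the 12 libraries, the chi-square of their gene counts was at least 3.96 per degree of freedom, where sampling noise alone gives about 1. Elsewhere in the series 4 of 1128 pairs differed by less than the sampling noise. These were control 6 h replicate 1 with EGF 24 h replicate 2, control 6 h replicate 2 with AII 24 h replicate 4, EGF 6 h replicate 1 with AII + EGF 6 h replicate 4, and EGF 6 h replicates 2 and 6. The main counts and medians that use those groups are therefore given with and without these libraries.

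One treated library stood apart. Each library was placed between the mean of the other controls (0) and the mean of the other AII + EGF libraries (1), over genes called without it. AII + EGF replicates 1 to 5 lay at 0.974, 0.993, 1.18, 1.08 and 1.11, and replicate 6 lay at 0.389. Controls lay between -0.0984 and 0.189, apart from replicate 3 at 0.392. The positions of treated replicate 6 and control replicate 3 rest on different gene sets, of 697 and 598 genes. Their nearly equal values do not mean that these libraries were alike. LAMB3, for example, was at 8.62 CPM in treated replicate 6 and at 2.16 CPM in control replicate 3.

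**Figure D1:**
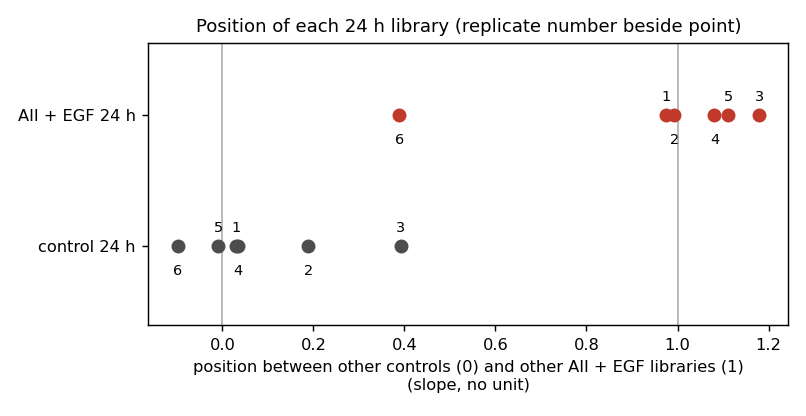
Position of each 24 h library on the axis from the other controls (0) to the other AII + EGF libraries (1), in units of that distance; each point is 1 library with its replicate number. AII + EGF replicate 6 sits at 0.389 and control replicate 3 at 0.392, between the remaining controls and the other 5 treated libraries.

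The low position of replicate 6 was not shared by all genes. ETV5, an ETS factor induced by ERK, was at 1.01 CPM in this library and between 10.4 and 15.5 CPM in the other 5. ANXA1, which encodes annexin A1, was at 125 CPM in replicate 6, within the range of the treated group, 118 to 135 CPM. CYP4F3 was at 1.95 CPM, also within the treated range of 1.75 to 2.29 CPM. The title numbers of the samples run through the treatments in turn, and the labels do not say what such a run is. In the last run, which holds replicate 6 of both groups, the median log2 difference of treated against control replicate 6 was 0.85 over the genes called higher and -0.46 over those called lower. In the other 3 runs these medians were 0.74 to 1.05 and -0.79 to -0.93. Against its own control the last run thus lay within this range for the higher genes and showed a weaker fall for the lower genes. The genes were chosen on the same libraries, and 247 of 257 and 209 of 217 kept their direction in the last run. Libraries numbered 6 were also low in other EGF groups, where ETV5 was at 1.33 CPM in EGF 24 h replicate 6 and at 7.51 CPM in AII + EGF 6 h replicate 6, against lowest values of 6.10 and 55.1 CPM in the other 5 libraries of each group. Those lowest values belong to near-identical libraries, and without these they were 12.3 and 77.0 CPM.

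Against control 24 h, AII + EGF changed 474 of 19337 genes tested (2.45%). Calls rested on quasi-likelihood tests in edgeR, adjusted after Benjamini and Hochberg, and needed an adjusted p below 0.01, a change of 1.5-fold or more, and a mean above 5 CPM in the higher group. Of these, 257 were higher (1.33% of genes tested) and 217 lower (1.12%). The median absolute log2 change was 0.83 for the genes that rose and 0.73 for those that fell, and 85 and 32 of them passed 2-fold. In bulk RNA, fewer cells with a response and less RNA per cell cannot be told apart. All 6 treated libraries lay above all 6 controls for 173 of the 257 higher genes, and this held for 2.66% of all genes tested. For 90 of the 217 lower genes all treated libraries lay below all controls, which held for 2.07% of genes tested. Without AII + EGF replicate 6 the counts were 349 higher and 348 lower, and 251 and 212 of the original calls remained. Of the 474 genes 261 were called in every one of the 12 fits that left out 1 of these libraries.

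The 2 directions differed in the kind of gene. Of the genes that rose, 248 were protein coding and 7 were long non-coding RNAs (lncRNAs), whereas 50 of the 217 genes that fell were lncRNAs. Over all genes tested, 0.22% of 3189 lncRNAs were called higher and 1.57% lower, compared with 1.76% and 1.11% of 14124 protein-coding genes. The median log2 change of all tested genes was -0.02, and it was 0.00 with RLE in place of TMM factors.

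PEA3-type ETS factors, which ERK signalling is known to induce, were among the genes that rose. ETV4 (chromosome 17, 43527846 to 43546340 in RefSeq on GRCh38.p14) was between 0 and 0.176 CPM in controls, with a median of 0.0678 CPM and at most 4 reads in a library. With AII + EGF its lowest, median and highest levels were 0.433, 5.83 and 7.79 CPM. The groups did not overlap, and the log2 change of 5.98 ± 0.96 (SE, adjusted p = 2.39e-05) is imprecise because the control level rests on so few reads. It was called in 9 of the 12 fits without 1 library. ETV5 (chromosome 3, 186046314 to 186109089) had 0.713, 0.857 and 1 CPM as lowest, median and highest control values and 1.01, 11.7 and 15.5 CPM with AII + EGF. Its lowest treated library, replicate 6, cleared the highest control only narrowly, and the log2 change was 3.62 ± 0.61 (SE, adjusted p = 5.12e-05). ETV1, the remaining member of this family, had a log2 change of 2.14 and was not called because its mean stayed under the CPM minimum.

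ARC, an SRF-controlled immediate-early gene linked to the cytoskeleton of neurones, was the only one of 23 tested immediate-early genes that was called. It ranged from 4.16 to 6.35 CPM in controls (median 5.83) and from 12.9 to 61.9 CPM with AII + EGF (median 47.6). The groups were separate, with a log2 change of 2.97 ± 0.58 (SE, adjusted p = 0.000368). The zinc finger factor EGR1 had 6.58, 7.17 and 8.51 CPM in controls and 8.12, 23.3 and 34 CPM with AII + EGF. These ranges overlapped, and the log2 change of 1.61 ± 0.49 (SE, adjusted p = 0.0188) did not pass. EGR3 (log2 change 1.26, adjusted p = 0.0481), EGR2 (0.98, adjusted p = 0.1), TGFB1 (0.95, adjusted p = 0.054) and FOS (-0.36, adjusted p = 0.561) did not pass either. The median log2 change of the immediate-early list was 0.26, with 18 of 23 above 0, beside -0.02 and 9119 of 19337 for all genes. DESeq2 called 2 of the 23. Of the 6 SRF targets that the study singled out on these same samples, which are therefore no independent evidence, 1 was called and the median was 1.12.

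**Figure D2:**
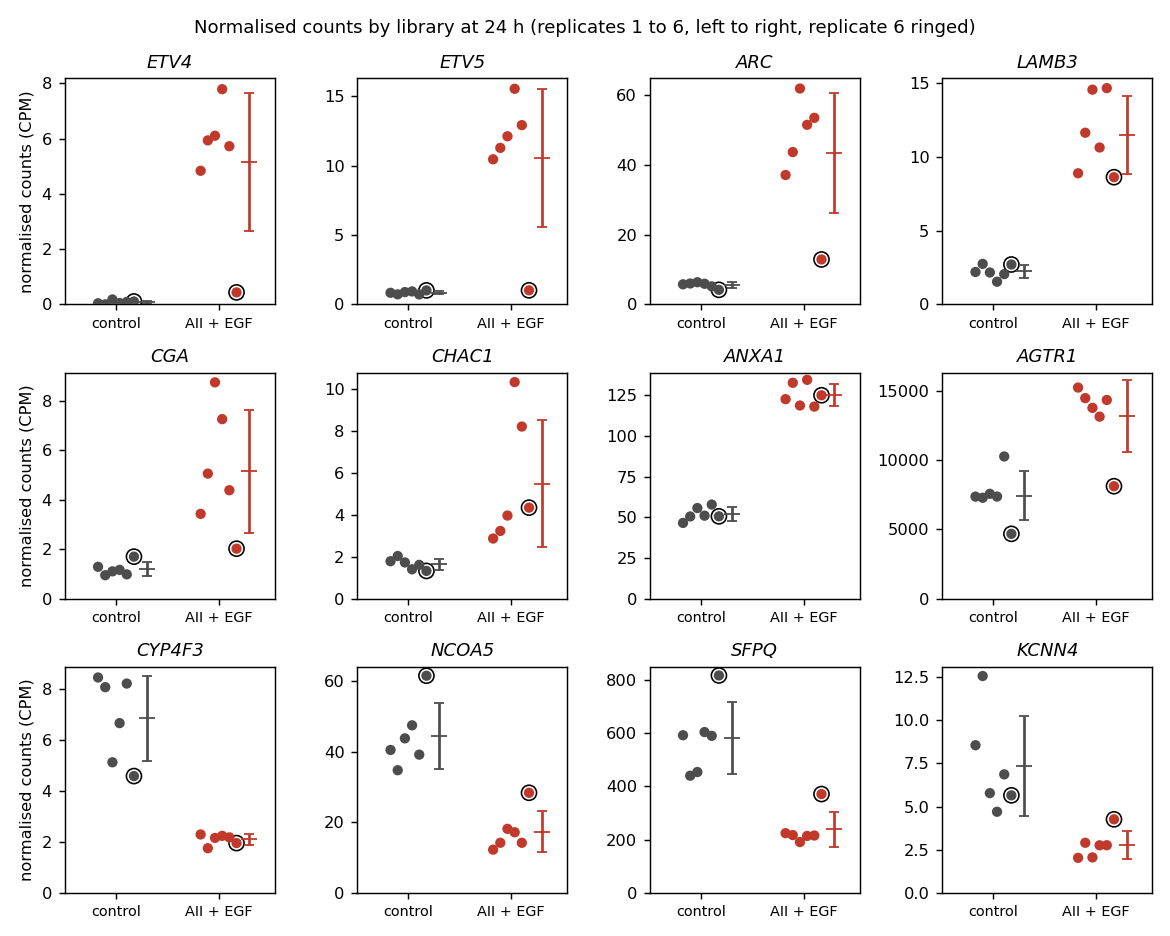
Normalised counts (CPM, linear axes from 0) of 12 genes in each control (grey) and AII + EGF (red) library at 24 h; points are libraries 1 to 6 from left to right, replicate 6 is ringed, and the bar gives the mean and SD of 6 libraries. AII + EGF replicate 6 sits near the controls for ETV4 and ETV5 and among the other treated libraries for ANXA1, CHAC1 and CYP4F3.

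Feedback regulators of this pathway were next. Of 19 tested MAPK feedback inhibitors 2 were called higher and none lower, with a median log2 change of 0.53. DUSP4, a nuclear phosphatase of ERK, had a control median of 12.3 CPM (8.11 to 13.6) and a treated median of 23.5 CPM (14.8 to 28.3), a log2 change of 0.96 ± 0.18 (SE, adjusted p = 0.000147). ERRFI1, which binds and inhibits EGFR family kinases, changed by 0.59 ± 0.12 on the log2 scale (adjusted p = 0.00037), and was called in 5 of the 12 fits without 1 library. Of 14 AP-1 subunits only the small MAF protein MAFK was called, with a log2 change of 0.83 ± 0.18, and of 29 cytoskeletal SRF targets the filamins FLNA (0.64) and FLNC (0.68) were called, FLNC in only 2 of those 12 fits. None of the 6 tested EGF-family ligands was called by edgeR or DESeq2, 3 had an unadjusted p under 0.05 and the list median was 0.37. The EGF gene itself rose without overlap, with a log2 change of 1.35 ± 0.22 (SE, adjusted p = 3.6e-05). It was not called because its treated mean of 3.21 CPM stayed under the CPM minimum.

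After ETV4, ETV5 and ARC, the called gene with the largest rise among those without overlap was LAMB3. This gene, the beta chain of the basement membrane protein laminin-332, ranged from 1.53 to 2.75 CPM in controls (median 2.18) and from 8.62 to 14.7 CPM with AII + EGF (median 11.1). Every treated library was at least at 8.62 CPM, replicate 6 included, and the log2 change was 2.36 ± 0.18 (SE, adjusted p = 1.48e-12). PLAAT3, a phospholipase A and acyltransferase, went from a median of 1.13 CPM (0.802 to 1.98) to 5.74 CPM (4.73 to 7.35). EMP1, an epithelial membrane protein, went from 3.23 CPM (2.46 to 3.96) to 13.6 CPM (5.99 to 16.7). TNFRSF12A, the receptor of the cytokine TWEAK, went from 3.83 CPM (2.94 to 5.78) to 17.1 CPM (8.95 to 22.5). These 3 genes had log2 changes of 2.27, 2.03 and 2.02. IL6R, the ligand-binding chain of the interleukin-6 receptor, changed by 1.72 and the lncRNA LINC02154 by 1.62, and C11orf96 went from 24.5 CPM (17.5 to 42.3) to 111 CPM (61.3 to 180), again without overlap. G0S2, an inhibitor of triglyceride lipase, had a log2 change of 2.94 ± 0.48, but its treated range of 4.8 to 34.9 CPM met the control range of 0.485 to 5.51 CPM because replicate 6 was at 4.8 CPM.

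CGA, the common alpha subunit of glycoprotein hormones and a classical target of CREB, rose from a control median of 1.13 CPM (0.945 to 1.7) to 4.72 CPM (2.02 to 8.76). Its log2 change was 2.09 ± 0.32 (SE, adjusted p = 1.24e-05), and it stayed called in 10 of the 12 fits that left out 1 library. Of 19 tested secretory granule and CREB target genes CGA and the clock gene PER1 were called, and the median log2 change was 0.34. The 250 bases before the start of CGA are shown together with those of EGR1, as RefSeq gives them on GRCh38.p14, because they carry the response elements for which these pathways are known. Capitals mark matches on either strand to the cAMP response element TGACGTCA and to the CArG box, the core site of SRF. Both sequences run 5′ to 3′.
CGA promoter, chr6:87095107-87095356, minus strand: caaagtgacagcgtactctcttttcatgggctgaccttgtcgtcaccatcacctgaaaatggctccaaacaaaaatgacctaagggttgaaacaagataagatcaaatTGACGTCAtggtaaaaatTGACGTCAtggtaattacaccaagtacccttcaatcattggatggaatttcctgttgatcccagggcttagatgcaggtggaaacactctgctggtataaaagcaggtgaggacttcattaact
EGR1 promoter, chr5:138465229-138465478, plus strand: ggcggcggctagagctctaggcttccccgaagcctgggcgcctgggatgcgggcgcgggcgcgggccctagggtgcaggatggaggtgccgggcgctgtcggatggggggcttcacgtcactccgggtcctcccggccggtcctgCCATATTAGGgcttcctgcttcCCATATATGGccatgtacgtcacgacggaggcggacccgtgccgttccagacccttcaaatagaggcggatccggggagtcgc
The CGA window held 2 matches to TGACGTCA, at 142 and 124 bases before the start, and none to the CArG box. The EGR1 window held 2 CArG boxes, at 105 and 83 bases before the start. Of 17412 promoters of tested genes 2.66% held TGACGTCA and 1.09% a CArG box. A promoter could be matched for 186 of the 257 higher and 130 of the 217 lower genes, or 72.4% and 59.9%. TGACGTCA was found for 5 of these 186 higher, 6 of these 130 lower and 437 of all 11970 tested genes with a promoter. The CArG box was found for 5, 1 and 180 of them. The directions differ in the share of matched genes, so these counts are only a description. A difference in motif shares between the directions was not tested.

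Genes of amino acid supply, many of them targets of the stress-induced factor ATF4, were examined as a list. Of 30 tested genes of the ATF4 and amino acid list 7 were called higher and none lower, the median log2 change was 0.36 and 24 were above 0. CHAC1, which degrades glutathione and is a typical ATF4 target, went from 1.66 CPM (1.32 to 2.03) to 4.14 CPM (2.86 to 10.3), without overlap and with a log2 change of 1.74 ± 0.27 (SE, adjusted p = 1.55e-05). ASNS, the asparagine synthetase, changed by 1.26 and the cystine transporter SLC7A11 by 0.94, although SLC7A11 remained called in only 5 of the 12 fits without 1 library. The mitochondrial folate enzyme MTHFD2 went from a median of 130 CPM (118 to 147) to 220 CPM (197 to 273), again without overlap. PHGDH, SHMT2 and CTH, enzymes of serine, glycine and cysteine synthesis, changed by 0.65, 0.66 and 0.61. ATF4 itself had a log2 change of 0.52 and was not called. Of 18 cytosolic aminoacyl-tRNA synthetases only WARS1 was called (0.59), in 6 of the 12 fits without 1 library.

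Membrane-binding and stress proteins made up other groups. Of 14 annexins and S100 proteins 3 were called higher, with a list median of 0.44. ANXA1 ranged from 46.5 to 57.8 CPM in controls (median 50.8) and from 118 to 135 CPM with AII + EGF (median 124), and S100A4, a calcium-binding protein, changed by 1.24 ± 0.20. The plasminogen activator PLAU was the only called gene of 17 in its list and changed by 1.15 ± 0.26, with every treated library, at 4.4 CPM or more, above the highest control at 4.01 CPM. Of 21 ER chaperone genes HSPA5, the chaperone BiP, and HERPUD1 rose, by 0.79 and 0.73. HSPA5 was at 411 CPM in replicate 6, below the lowest control at 416 CPM, and between 767 and 976 CPM in the other treated libraries. Chosen after their values were seen, 5 of 22 tested HSPA, HSPB and HSPH genes were called higher and none lower, with a family median of -0.0017 on the log2 scale. They were HSPA1A, HSPA1B, HSPA5, HSPB1 and HSPB8, and reads of HSPA1A and HSPA1B cannot be told apart with certainty because these genes are nearly identical.

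Histone transcripts were also counted in the poly(A) RNA. Of 28 tested canonical histone genes 5 were called higher and none lower, with a median log2 change of 0.25 and 21 above 0. H2BC11 went from 4.28 CPM (3.12 to 4.61) to 11.8 CPM (4.26 to 13), where the lowest treated library, replicate 6, lay within the controls, and its log2 change was 1.37 ± 0.16. H1-2, H2BC21 and H2AC18 changed by 1.10, 1.09 and 1.04, and their groups overlapped as well. Replicate 6 had H2BC21 at 5.99 CPM, below the lowest control at 6.62 CPM. It had H1-2 at 22.2 CPM and H2AC18 at 11.8 CPM, within the control ranges of 16.6 to 29.5 and 8.56 to 14.3 CPM. H2AC19 shares nearly all of its sequence with H2AC18 and is uncertain. Of 38 DNA replication genes, 30 mitosis genes and 45 ribosomal protein genes none was called by edgeR or DESeq2, and 11, 10 and 2 had an unadjusted p under 0.05. Their median log2 changes were 0.01, 0.09 and -0.10. At an adjusted p under 0.01, but short of the fold or CPM minimum, 1 DNA replication gene was higher and 2 were lower. The same held for 1 ribosomal protein gene, which was lower. Of 18 clock genes PER1 (0.69) and TEF (1.03) rose. Neither edgeR nor DESeq2 called a gene among 29 of cholesterol and fatty acid synthesis, 27 of the TGF-beta family and its feedback, 27 of the interferon response, 15 RGS proteins or 11 p38 and JNK kinases, whose median log2 changes lay between -0.06 and 0.07. In these 5 lists 7, 12, 6, 3 and 2 genes had an unadjusted p under 0.05. An adjusted p under 0.01 was reached by 0, 1, 1, 1 and 1 genes, all higher, which missed the fold or CPM minimum. The largest log2 change was 2.05 in the TGF-beta list and 1.40 in the RGS list.

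**Figure D3:**
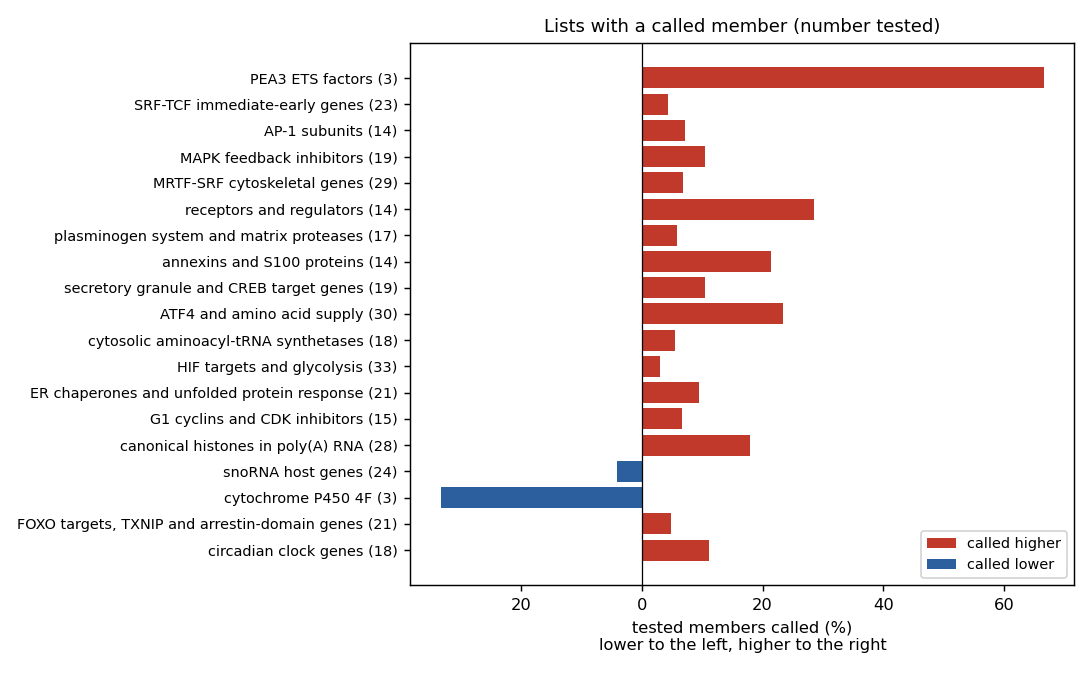
Share of tested members called at 24 h in each gene list with at least 1 called member (number tested in parentheses), higher to the right in red and lower to the left in blue. The longest bars, those of the PEA3 ETS factors with 2 of 3 higher and of the cytochrome P450 4F genes with 1 of 3 lower, rest on 3 genes each, and over all genes 1.33% were higher and 1.12% lower.

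Receptors of both ligands were counted too. AGTR1 encodes AT1R, and its count holds reads of the introduced plasmid, so that endogenous and plasmid RNA cannot be told apart. It ranged from 4682 to 10277 CPM in controls (median 7375) and from 8126 to 15260 CPM with AII + EGF (median 14076). The ranges overlapped through replicate 6, and the log2 change was 0.83 ± 0.17 (SE, adjusted p = 0.000508). EGFR was at 29.9 CPM (23.6 to 35.9) in controls and 28.9 CPM (25.3 to 33) in treated cells, with a log2 change of -0.06 ± 0.15 (SE, adjusted p = 0.851). ERBB3, an EGFR relative that binds neuregulins, rose by 1.18 ± 0.21 without overlap, and ACE, which converts angiotensin I to AII, by 1.31 ± 0.25. Thus 4 of the 14 receptors and regulators were called higher, among them ERRFI1, and the list median was 0.09.

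SFPQ, a paraspeckle and splicing protein, fell from a median of 591 CPM (440 to 816) to 216 CPM (191 to 371), without overlap and with a log2 change of -1.29 ± 0.17 (SE, adjusted p = 1.15e-06). In 5 of the 6 treated libraries SFPQ lay between 191 and 224 CPM, and replicate 6 was at 371 CPM. Other families of RNA-binding and splicing proteins were looked up after these values were seen. Of 12 tested SRSF splicing factors 4 were called lower and none higher (SRSF1, SRSF2, SRSF6 and SRSF8, log2 changes of -1.05, -0.95, -0.75 and -0.73), and the family median was -0.38. Of 22 HNRNP genes HNRNPM (-1.05) and HNRNPU (-0.61) were called lower, and of the 3 paraspeckle proteins SFPQ and PSPC1 (-0.81). At 6 h the medians of the SRSF and HNRNP families against control 6 h were 0.13 and 0.26, or 0.06 and 0.19 without the near-identical libraries.

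Zinc finger genes were counted next. Of 483 tested genes with a ZNF symbol, a family chosen after its values were seen, 32 (6.63%) were called lower and 1 (0.21%) higher, and 122 had a log2 change above 0. Their median log2 change was -0.18 with TMM and -0.16 with RLE factors. The higher one was ZNF541 (1.46), and ZNF239 (-0.94 ± 0.12) fell without overlap, from 8.09 CPM (7.72 to 9.18) to 4.34 CPM (2.96 to 5.84). Many of these genes are close relatives, and the fate of reads that fit several of them is not given in the sources used here.

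CYP4F3, which inactivates leukotriene B4 by omega-hydroxylation, fell most among protein-coding genes without overlap. It lies on chromosome 19 (15640897 to 15662825). Its lowest, median and highest values were 4.57, 7.35 and 8.44 CPM in controls and 1.75, 2.16 and 2.29 CPM with AII + EGF. All treated libraries, replicate 6 included, were below all controls, with a log2 change of -1.71 ± 0.19 (SE, adjusted p = 4.9e-08). Its relative CYP4F2 had a log2 change of -2.05 at a level too low to be called, and reads of these near copies may be shared. The remaining tested CYP4F gene went the other way, with a log2 change of 0.85, and was not called. GJB7, a gap junction protein, and KCNN4, a calcium-activated potassium channel, changed by -1.68 and -1.39, NCOA5, a coactivator of nuclear receptors, by -1.35, TCTA by -1.37 and KBTBD7 by -1.09. Among non-coding genes without overlap the lncRNAs Z92544.2 (-1.74), AL353804.1 (-1.45) and LINC01977 (-1.31) and the transcribed pseudogene LINC00680 (-1.73) fell most. SNHG20 was the only called gene of 24 snoRNA hosts (-0.68).

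Next, the joint arm was set beside each ligand alone. Against AII 24 h, AII + EGF differed in 269 genes (1.39% of genes tested), 139 higher and 130 lower, and in 187 without the near-identical libraries. Against EGF 24 h it differed in 6 genes (0.031%), 5 higher and 1 lower, although 2207 genes had an unadjusted p under 0.05 and DESeq2 called 18. The count was 34 without AII + EGF replicate 6 and also 34 with the title run as a block, and 1 without the near-identical libraries. The 6 genes were LAMB3, LINC02154, LGALS1, KIAA0513, CAPG and ZNF239. For LAMB3 the lowest, median and highest values were 2.29, 2.88 and 3.62 CPM with AII alone, 3.2, 3.4 and 5.07 CPM with EGF alone and 8.62, 11.1 and 14.7 CPM with both. Every library with both ligands lay above every library with 1 ligand, and the log2 difference from EGF 24 h was 1.60 ± 0.18 (SE, adjusted p = 1.75e-07). It held in all 12 fits that left out 1 library of these groups, and without the near-identical libraries it was the only gene called (log2 difference 1.54, adjusted p = 4.18e-06). LGALS1, which encodes galectin-1, had medians of 5.05, 5.75 and 11.2 CPM with AII, EGF and both, and CAPG, an actin-capping protein, 5.05, 5.93 and 9.78 CPM. Their log2 differences from EGF 24 h were 1.06 ± 0.18 and 0.84 ± 0.16, and the adjusted p values without the near-identical libraries were 0.0367 and 0.0537. KIAA0513 differed by 0.71, LINC02154 by 1.11 and ZNF239 by -0.68, with adjusted p values of 0.034, 0.034 and 0.0385 without these libraries.

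For the ETS factors and SRF targets no difference from EGF alone was called. ETV5 had a log2 difference of -0.04 between AII + EGF and EGF 24 h (adjusted p = 0.987), with medians of 11.7 and 12.7 CPM. ARC had medians of 7.23 CPM with AII, 19.2 CPM with EGF and 47.6 CPM with both, and its log2 difference of 1.38 ± 0.54 (SE) from EGF was not called (adjusted p = 0.293). This test did not block by title run, and a missing call does not show equal levels. AII + EGF replicates 1 to 5 lay at 37.1 to 61.9 CPM of ARC, above the highest EGF library at 21.2 CPM. In the last run ARC was at 12.9 CPM with both ligands and 6.42 CPM with EGF. EGR1 medians were 7.06, 26.7 and 23.3 CPM with AII, EGF and both. Without the near-identical libraries the log2 differences from EGF 24 h were -0.17 for ETV5, 1.30 for ARC and -0.20 for EGR1, with adjusted p values of 0.956, 0.495 and 0.946. The comparisons of the 3 treatments with control share the 6 control libraries and are given only side by side. Over the 257 genes that rose with AII + EGF, the median log2 change was 0.83 with both ligands, 0.42 with EGF and 0.16 with AII, and over the 217 that fell it was -0.73, -0.38 and -0.09. Without the near-identical libraries the medians for EGF and AII were 0.48 and 0.19 over the higher genes and -0.41 and -0.11 over the lower genes. The genes were chosen on the first of these values, so that these medians are a description.

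**Figure D4:**
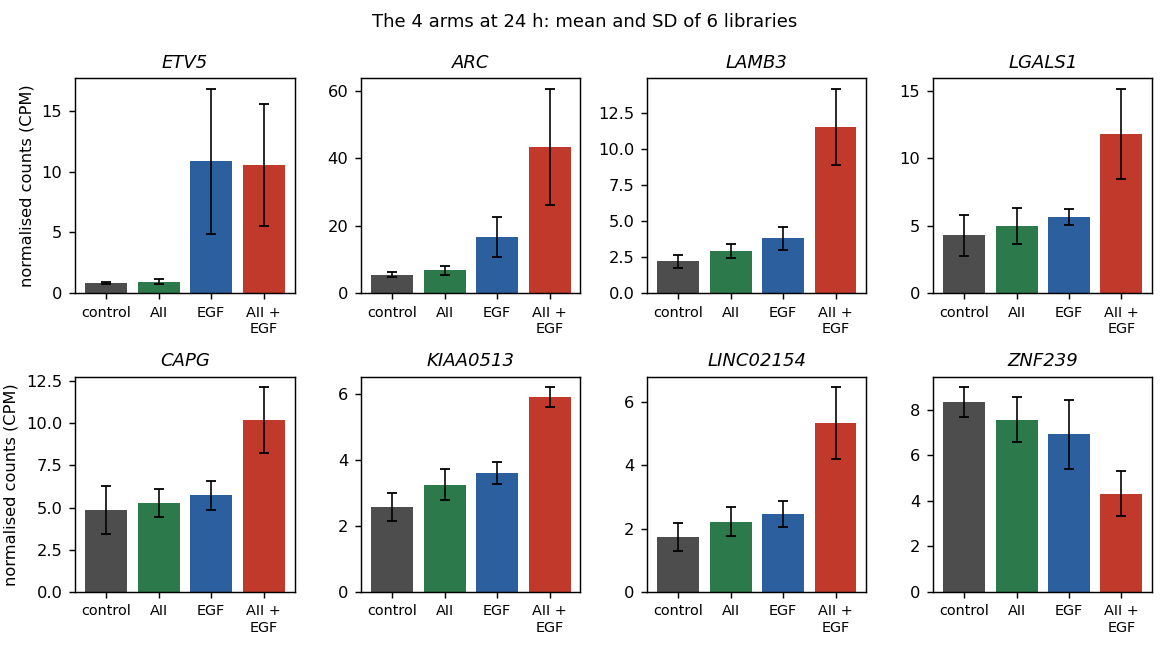
Normalised counts (CPM, axes from 0) of ETV5, ARC and the 6 genes called against EGF alone in the 4 arms at 24 h; bars are means of 6 libraries and error bars the SD. ETV5 has medians of 12.7 CPM with EGF and 11.7 CPM with AII + EGF, whereas LAMB3 has a median of 11.1 CPM with both ligands and 3.4 CPM with EGF.

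Finally, the response at 24 h was compared with that at 6 h. At 6 h the same treatment changed 1778 genes (9.19% of genes tested), 868 higher and 910 lower, or 906 and 698 without the near-identical libraries. Of these 1778, 101 genes were called in the same direction at both times, which is 21.3% of the 24 h list and 5.68% of the 6 h list. These 2 comparisons share no library. Among the genes that rose at 24 h, 75 had already risen at 6 h and 28 had fallen then, while of the genes that fell 26 had fallen and 11 had risen. Without the near-identical libraries these counts were 90, 15, 26 and 9. The difference between the responses was called for 1892 genes (9.78%), or 1292 without the near-identical libraries. The change at 24 h was called larger than that at 6 h for 118 of the 257 higher and 97 of the 217 lower genes, and for 77 and 73 without these libraries. It was called smaller for 2 higher and no lower genes (6 and 0 without them).

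EGR1, EGR2, EGR3 and FOS responded less at 24 h than at 6 h. EGR1 had a log2 change of 4.57 at 6 h, and the response at 24 h was lower by a log2 difference of -2.96 (adjusted p = 0.00108). EGR3, EGR2 and FOS differed by -2.96, -2.49 and -2.04, EGFR by -0.93 and LBH, a regulator of transcription, by -2.21. The differences for ETV4 (1.05), ETV5 (-1.48) and ARC (-1.74) were not called, with adjusted p values of 0.607, 0.19 and 0.0961. Without the near-identical libraries those of ETV5 and ARC were -2.58 and -2.15 (adjusted p = 0.0535 and 0.0677), again not called. With AII + EGF the mean of ETV5 was 65.2 CPM at 6 h and 10.5 CPM at 24 h, and that of ARC 189 and 43.4 CPM. These 6 h means include AII + EGF 6 h replicate 6, at 7.51 CPM of ETV5, 7.51 CPM of ARC and 4.66 CPM of EGR1. The group medians at 6 h were 78.1, 222 and 196 CPM. That library is kept in the fits without the near-identical libraries, and without it alone 2387 differences were called in place of 1892. The direction for ETV4 turned without the near-identical libraries (-1.49, adjusted p = 0.668), where control 6 h replicate 1, at 1.87 CPM of ETV4 against at most 0.135 CPM in the other controls, was left out. Late rises were found for LAMB3, with a log2 change of -0.08 at 6 h and a difference of 2.44 (adjusted p = 9.64e-09), or 2.26 without the near-identical libraries. G0S2 and MVP, the major vault protein, had the largest differences among genes called at 24 h, 3.14 and 3.26. Without the near-identical libraries they were 1.70 (adjusted p = 0.108) and 2.24 (adjusted p = 0.000536), so that the call for G0S2 was lost. Of the 28 histone genes 8 were called lower at 6 h and 5 higher at 24 h, beside 910 and 257 of all 19337 genes tested. The count of 8 was made with the near-identical libraries included. H2BC21, for example, had a called log2 change of -0.84 at 6 h and 1.09 at 24 h, a difference of 1.93 or 1.98 without the near-identical libraries, whereas H2BC11 was not called at 6 h (-0.24) and the 6 h call of H1-2 (-0.63) was lost without them. SFPQ had a log2 change of 0.15 at 6 h, and the difference of -1.44 was called with and without those libraries. The lncRNA AC019069.1 (difference -2.43) and ZNF804A (-2.01) had been higher at 6 h and were lower at 24 h, although the 6 h call of AC019069.1 was lost without the near-identical libraries.

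**Figure D5:**
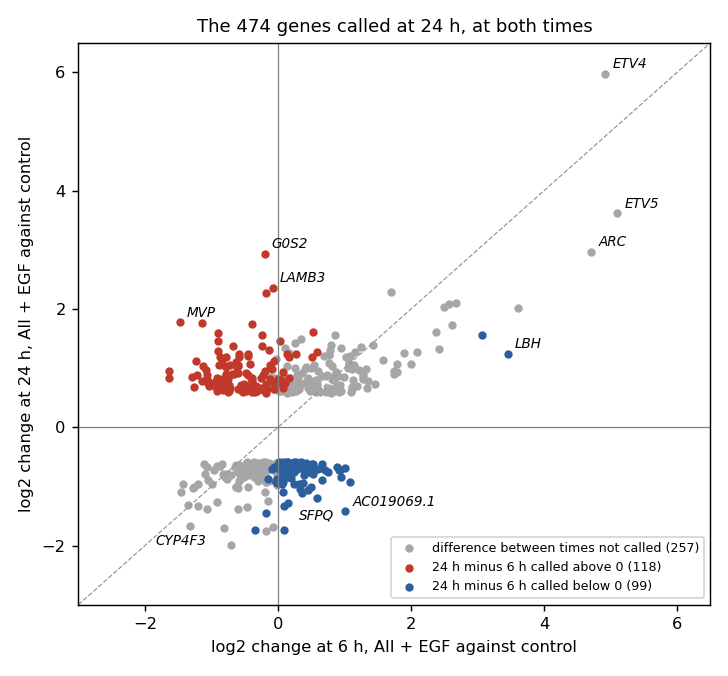
Log2 change of the 474 genes called at 24 h, at 6 h (horizontal) and at 24 h (vertical), AII + EGF against the control of the same time; the dashed line marks equal changes, red and blue points the 118 and 99 genes whose difference between times was called above and below 0. LAMB3, G0S2 and MVP lie near or left of 0 at 6 h, while ETV4, ETV5 and ARC are high at both times.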

How the data were processed

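Gene counts of 48 libraries were used as deposited by the authors, who per the labels aligned reads with HISAT2 2.1.0 to hg38 and counted them with featureCounts. Strand settings are not given in the sources used here, so overlapping and antisense genes are uncertain. Genes were filtered with filterByExpr and fitted over all 48 libraries and 8 groups in edgeR 4.0.16 (R 4.3.3) with TMM factors and quasi-likelihood tests, and DESeq2 1.42.0 was an alternative. Calls needed a Benjamini-Hochberg adjusted p under 0.01, a 1.5-fold change and a mean above 5 CPM, after the study's thresholds. CPM values are normalised by TMM. In a simulation of this comparison over 19337 genes, 38 of 67, 62 of 67 and 66 of 66 genes changed by 1.5-, 2- and 4-fold had an adjusted p under 0.01 with the right sign, and 2 unchanged genes had an adjusted p under 0.01. The changed genes were drawn only from better expressed ones, above the control levels of ETV4, ETV5 and LAMB3. No outlying library was simulated, so these shares do not cover weakly expressed genes or libraries such as AII + EGF replicate 6. Named genes were the 12 largest rises and falls without overlap, the 4 largest called members of each list, ETV4, ETV5, ARC, CYP4F3, AGTR1, EGFR and the study's SRF targets, the 3 highest and lowest called differences between times, and genes called against EGF 24 h. Genes, lists and comparisons were chosen with earlier results of these data known. Other choices made after seeing values are named as such. No replicate number is given by the labels, and replicates are numbered in accession order. Depth covers counting error only. Some items are not reported here.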

Additional observations from a re-analysis of the deposited data

Results flagged for a closer look

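Some libraries lay far from the other 5 of their group, by Dixon's test on the gap to the nearest library, which chance alone passes in about 1 in 20 groups. On the axis between the groups AII + EGF replicate 6 was such a library, at 0.389. It was also the lowest by this measure for ETV5 (1.01), G0S2 (4.80), MVP (11.8), AL031118.1 (2.89), H2BC11 (4.26), ARRDC4 (96.7), H2BC21 (5.99), TEF (12.7), AGTR1 (8126), HSPA5 (411) and PER1 (30.5), and the highest for SFPQ (371), NCOA5 (28.3), TCTA (10.8), AC019069.1 (5.84) and LINC00680 (7.47), all in CPM. Control 24 h replicate 3 was the highest for LGALS1 (7.19), S100A4 (9.88), H1-2 (29.5), TCTA (22.1) and AC019069.1 (8.38), and control 24 h replicate 6 was the lowest for DUSP4 (8.11) and FOS (1.25) and the highest for LINC00680 (16.3). What sets these libraries apart was not tested.

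For 35 named genes the response to AII + EGF differed between 24 h and 6 h by the test of the difference itself. Over all 19337 genes tested this difference was called for 1892 (9.78%). G0S2, MVP, AL031118.1, LBH, ZNF804A and AC019069.1 were named because this difference was called and extreme, so their presence here was fixed in advance. In log2 units, 24 h minus 6 h, the difference was above 0 with and without the near-identical libraries for LAMB3 (2.44), PLAAT3 (2.46), MVP (3.26), CHAC1 (2.14), LGALS1 (1.43), H2BC11 (1.60), S100A4 (1.83), ERBB3 (1.96), H1-2 (1.73), H2BC21 (1.93), CAPG (1.49), H2AC18 (1.83), TEF (2.15), HERPUD1 (1.54) and PER1 (0.89). It was below 0 in both fits for EGR1 (-2.96), EGR3 (-2.96), LBH (-2.21), EGR2 (-2.49), EGFR (-0.93), FOS (-2.04), ZNF804A (-2.01), ZNF239 (-0.93), SFPQ (-1.44), AC019069.1 (-2.43), AL353804.1 (-1.26) and Z92544.2 (-1.84). The call was lost without those libraries for G0S2 (3.14), AL031118.1 (2.90), LINC02154 (1.09), ACE (1.45), ANXA1 (0.68), KIAA0513 (0.68), SNHG20 (-0.61) and LINC00680 (-1.39).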

How the results depend on the processing

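The labels give no replicate numbers, so samples were blocked only by the run in their titles, which gave 646 genes against control, 435 against AII 24 h and 34 against EGF 24 h. Without the near-identical pairs the ETV4 difference between times turned from 1.05 to -1.49, neither called. Against control the count of 474 became 1015 without a fold minimum, 849 without an abundance minimum, 526 with DESeq2, and 353 to 697 when 1 library was left out (697 without AII + EGF replicate 6). Against EGF 24 h the count of 6 became 18 with DESeq2, 18 at an adjusted p under 0.05, 2 without a filter on low counts, 3 with the study's filter, 3 from these groups alone, 12 without the last title run, 1 without the near-identical pairs, and 1 to 34 when 1 library was left out. It was 1 without EGF replicate 2 or 6 or AII + EGF replicate 3 or 4, 2 without AII + EGF replicate 2 or EGF replicate 5 and 34 without AII + EGF replicate 6. Against AII 24 h the count of 269 became 557 without a fold minimum, 493 without an abundance minimum, 165 without AII replicate 6, 178 without AII + EGF replicate 3 or 5 and 455 without AII + EGF replicate 6. Leaving out control replicate 3 and AII + EGF replicate 6 together, chosen after seeing the data, gave 848, 46 and 492. Differences between times numbered 1552 to 2387 when 1 library was left out (2387 without AII + EGF 6 h replicate 6). Genes shared between times numbered 76 to 134 when 1 library was left out. The cause of these shifts was not tested. Depth limits ETV4, with at most 4 reads in a control library.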
